A study of Homo sapiens with 3 samples.

Results

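Integrins are the receptors by which cells hold on to the extracellular matrix. The 10 integrin subunits ITGA2, ITGA3, ITGA5, ITGA6, ITGAV, ITGB1, ITGB3, ITGB4, ITGB5 and ITGB6 were taken by gene symbol from a table of 51136 genes counted by RNA-seq in PANC-1, an established line of epithelial-type cells from a human pancreatic ductal carcinoma. They comprise 5 α and 5 β subunits, and 16 other integrin genes were looked up beside them. The control library came from cells for which the labels name no agent, and no vehicle is named. The Rg3 library came from cells given 200 μM ginsenoside Rg3, a saponin of ginseng, for 24 h, and the TAM library from cells given 50 μM tamoxifen, an antiestrogen, for 24 h. All 3 conditions used the same line and serum-containing medium, and each had 1 library. The expression profiles were collected to learn how each agent, later combined with cantharidin in animals, changed the cells, and no cantharidin was given to the cells sequenced. With 1 library per condition there is no replicate check: every test and interval below covers counting error between 2 libraries and not the variation between cultures.

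A working integrin is a heterodimer of 1 α and 1 β subunit, and neither is carried to the cell surface well without its partner. In the families described here, β1 pairs with α2, a collagen receptor, with α3 and α6, laminin receptors, with α5, the classical fibronectin receptor, and with αV. The β4 subunit pairs with α6 alone and anchors epithelial cells through hemidesmosomes. The αV subunit also pairs with β3, β5 and β6 to bind matrix proteins that carry the arginine-glycine-aspartate motif, such as vitronectin, and the dimer with β6 is known for activating latent TGF-β. Pancreatic carcinoma cells commonly use these receptors to attach to and move over a collagen- and laminin-rich matrix.

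The genes lie on 6 chromosomes in GRCh38, the build named in the submitters' processing notes, with positions here from GENCODE release 29. ITGA2 is at chr5:52989326-53094779 and ITGB5 at chr3:124761948-124901418. Chromosome 17 holds ITGA3 at chr17:50055968-50090481, ITGB3 at chr17:47253846-47311816 and ITGB4 at chr17:75721328-75757818. Chromosome 2 holds ITGA6 at chr2:172427354-172506282, ITGAV at chr2:186590065-186680901 and ITGB6 at chr2:160099666-160200313. ITGA5 is at chr12:54395261-54419460 and ITGB1 at chr10:32900319-33005792. ITGA5, ITGB1, ITGB5 and ITGB6 are on the minus strand and the others on the plus strand.

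The same short membrane-proximal peptide, by which α subunits are held to their β partner inside the cell, is encoded in each of the 5 α subunits. The 15 coding bases are shown because they display how one shared function is written with different base composition, a property that the count differences below followed. Capitals mark G and C, and the sequences are coding sequence of GENCODE 29 transcripts, 5′ to 3′.
ITGA2: GGCttCttCaaaaGa
ITGA3: GGCttCttCaaGCGa
ITGA5: GGattCttCaaaCGC
ITGA6: GGtttCttCaaGaGa
ITGAV: GGCttttttaaaCGG
ITGA3 had 8 G or C among the 15 bases and ITGA5 had 7, whereas ITGA2, ITGA6 and ITGAV had 6 each.

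The difference was wider over whole transcripts. The longest annotated transcript held 38.3% G and C for ITGAV, 40.0% for ITGB1, 40.1% for ITGB6, 40.2% for ITGA2 and 42.9% for ITGA6, and it held 52.3% for ITGB3, 54.3% for ITGB5, 54.5% for ITGA5, 61.3% for ITGA3 and 63.7% for ITGB4. The last 120 coding bases, stop codon included, of the 2 subunits with the least G and C among those compared and of the 2 with the most are shown with G and C in capitals.
ITGAV: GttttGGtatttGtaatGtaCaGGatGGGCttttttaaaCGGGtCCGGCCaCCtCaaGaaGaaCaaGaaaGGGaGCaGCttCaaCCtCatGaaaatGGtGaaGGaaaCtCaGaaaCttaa
ITGB1: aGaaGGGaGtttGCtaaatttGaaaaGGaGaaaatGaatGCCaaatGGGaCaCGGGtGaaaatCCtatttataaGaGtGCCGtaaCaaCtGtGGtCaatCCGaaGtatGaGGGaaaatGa
ITGA3: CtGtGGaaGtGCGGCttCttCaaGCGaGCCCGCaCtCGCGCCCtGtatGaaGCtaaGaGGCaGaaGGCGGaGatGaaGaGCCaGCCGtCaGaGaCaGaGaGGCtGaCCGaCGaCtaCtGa
ITGB4: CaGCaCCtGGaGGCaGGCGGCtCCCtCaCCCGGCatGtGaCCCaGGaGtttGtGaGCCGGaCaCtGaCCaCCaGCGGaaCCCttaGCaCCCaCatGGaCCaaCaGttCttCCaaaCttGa
The shares of G and C in these stretches were 41.7% for ITGAV, 39.2% for ITGB1, 59.2% for ITGA3 and 60% for ITGB4. For ITGA3, ITGA5 and ITGB1 the coding bases shown come from another transcript than the longest. Its whole coding sequence held 60.2% G and C for ITGA3, 58.6% for ITGA5 and 41.3% for ITGB1.

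The libraries held 11300766 counted reads in control, 12861693 in Rg3 and 11321442 in TAM, and a gene listed at 0 could have had up to 3 counts at such depth. The 10 subunits together took 0.236% of the reads in control, 0.251% in Rg3 and 0.192% in TAM. Epithelial markers were present in each library, with 6 of 6 detected, at a summed CPM (counts scaled to a common library total) of 2439 in control, 1218 in Rg3 and 2483 in TAM. KRT8 and KRT18 made up most of that sum. With Rg3, 5 of the 6 were called lower by the test described below, all but EPCAM, where 15.8% of all genes compared were. With TAM, 3 were called lower, KRT19 at −1.67, EPCAM at −1.49 and CDH1 at −3.72 on the log2 scale. CDH1 had 76 counts in control and 5 in TAM. KRT7 was called higher with TAM at 0.68, but not with library totals, at 0.47. Over all genes, 18.4% were called lower and 14.0% higher with TAM. After removal of the GC and length trend described below, KRT18 lost its Rg3 call, at −0.54, and KRT7 its TAM call, at 0.19. The other calls of these markers stayed, beside 7.09% of genes lower with Rg3 and 11.3% with TAM. Vimentin and N-cadherin, which this line is known to express, summed to a CPM of 4947 in control, 3154 in Rg3 and 3741 in TAM. Vimentin made up most of that sum and was called lower with Rg3, at −0.80, and at −0.99 with the trend taken off. N-cadherin was called lower with TAM, at −0.82, and lost that call with the trend taken off, at −0.52. All 5 acinar and all 4 islet markers were at 0 in every library. The 4 endothelial markers summed to 51, 57 and 55 counts, with CDH5 at 0 throughout. KDR alone had 49, 54 and 52 of these. Of the 6 leukocyte and platelet markers, which summed to between 465 and 1127 counts, CD3E was at 0 in every library and PTPRC in control and Rg3. Most of their counts were those of CD68, a lysosomal protein of macrophages that other cells also make. CD68 had 615 counts in control, 426 in Rg3 and 1100 in TAM, and was called lower with Rg3 and higher with TAM. With the trend taken off, its TAM call stayed, at 0.66, and its Rg3 call was lost, at −0.50. The 5 fibroblast and stellate markers summed to a CPM of 183 in control, 85.5 in Rg3 and 76.3 in TAM, and DCN or LUM was at 0 in each library. COL1A1 made up most of that sum in each library. The part of these marker differences in the integrin results was not tested. In bulk RNA, fewer cells of a kind and less RNA per cell cannot be told apart.

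Levels of different genes were compared per length, as RPKM, counts scaled to the length of the longest transcript and to the library total. ITGA3 had the highest level in control, 159.7, followed by ITGB1 at 119. ITGB5 at 72.7 (95% Poisson interval 70.4 to 75.1) and ITGA5 at 69.6 (67.5 to 71.8) came next, and their intervals overlapped. The lower levels were 25.2 for ITGA6, 14.8 for ITGAV, 10.2 for ITGB4, 7.19 for ITGA2 and 2.10 for ITGB3. ITGB6 was close to absent, with 2 counts in control, 2 in Rg3 and 0 in TAM, and it was too low to compare. The laminin receptor subunit ITGA3 and the common β1 subunit thus led the control library.

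In the Rg3 library the order of the leading subunits turned, with ITGB1 at a level per length of 193.9 and ITGA3 at 105. These levels keep the GC and length trend described below. With that trend taken off, the log2 fold changes with Rg3 were −0.14 for ITGB1 and −0.13 for ITGA3. In the TAM library ITGA3 stood highest at 155, with ITGB5 at 76.5, ITGA5 at 66.1 and ITGB1 at 54.0 after it. ITGAV ranked 6 in control and 8 in TAM, where its level of 4.42 (3.97 to 4.91) lay under those of ITGB4 at 7.58 and ITGA2 at 5.65. These levels depend on the transcript length chosen. With the median length of a gene's annotated transcripts, ITGA5 stood above ITGB5 in control, and ITGAV at 42.2 above ITGA2 at 12.1 in TAM.

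**Figure D1:**
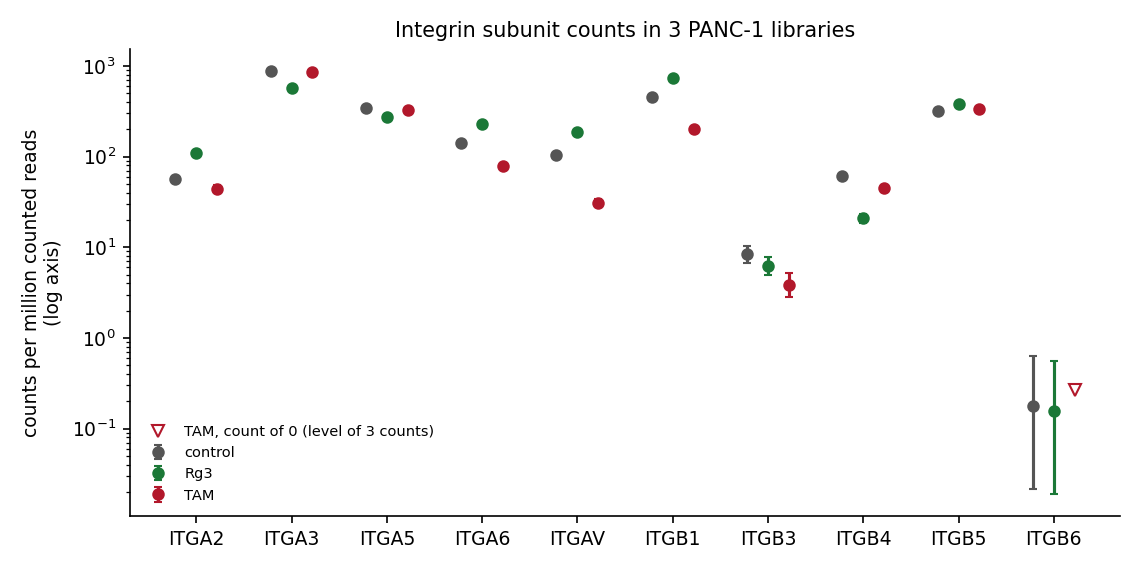
CPM (log axis) of the 10 integrin subunits in the control, Rg3 and TAM libraries, 1 point per library, with exact 95% Poisson intervals (hidden by the point where narrow). The open triangle stands for the TAM library's count of 0 for ITGB6, at the level of 3 counts. ITGA2, ITGA6, ITGAV and ITGB1 are highest in Rg3 and lowest in TAM, while ITGA3, ITGA5 and ITGB4 are lowest in Rg3.

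Between 2 libraries a subunit was called higher or lower when the exact two-sided binomial test on its reads gave a Benjamini-Hochberg adjusted p under 0.05 over all genes compared and its fold was over 1.5 or under 0.67. Library sizes were scaled by TMM, edgeR's trimmed mean of the gene-wise ratios. Against control, 2 of the 9 subunits compared were called higher with Rg3, ITGA2 and ITGAV, and 2 were called lower, ITGA3 and ITGB4. Over all 16487 genes, 20.5% were called higher and 15.8% lower. With TAM, 0 of the 9 were called higher and 4 lower, ITGA6, ITGAV, ITGB1 and ITGB3, where 14.0% of 16079 genes were called higher and 18.4% lower. The median log2 fold change of the 9 subunits was 0.12 with Rg3, against 0.04 for all genes, and −0.22 with TAM, against −0.02. Scaling by the library totals alone raised every Rg3 value by 0.14 on the log2 scale and lowered every TAM value, by −0.21. It gave 4367 genes higher and 1749 lower with Rg3, in place of 3377 and 2606, and 1120 higher and 4325 lower with TAM, in place of 2250 and 2965.

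Among the α subunits, the collagen receptor subunit ITGA2 had 639 counts in control, 1394 in Rg3 and 503 in TAM. It was highest in Rg3, with a log2 fold change of 0.80 (95% interval 0.66 to 0.94). With TAM its log2 fold change was −0.14 (−0.31 to 0.03), with an adjusted p of 0.167 by the exact binomial test. ITGAV, the shared partner of the vitronectin receptors, had 1178 counts in control, 2393 in Rg3 and 352 in TAM. It rose with Rg3, by 0.70 (0.59 to 0.80), and fell with TAM, with a log2 fold change of −1.54 (−1.71 to −1.36), so that its TAM level was 0.345 of the control level. Under TMM no other subunit was called higher with Rg3 and lower with TAM, but with library totals ITGA6 and ITGB1 were too. With the GC and length trend described below removed, ITGAV was at −0.088 with Rg3 and was not called.

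The laminin receptor subunit ITGA6 had 1597 counts in control, 2957 in Rg3 and 898 in TAM. It fell with TAM, with a log2 fold change of −0.62 (−0.74 to −0.51). With Rg3 its value was 0.56 (0.47 to 0.65), a fold of 1.48 that lay just under the limit of 1.5, and with library totals it was 0.70 and called higher. ITGA3, the most abundant α subunit, had 9889 counts in control, 7401 in Rg3 and 9640 in TAM. It was lower with Rg3, with a log2 fold change of −0.74 (−0.79 to −0.70). With TAM its value was 0.17 (0.13 to 0.21) under TMM and −0.039 with library totals. ITGA5, the fibronectin receptor subunit, was called in neither treated library, with 3931, 3489 and 3740 counts in control, Rg3 and TAM. Its log2 fold changes were −0.50 (−0.56 to −0.43) with Rg3 and 0.13 (0.07 to 0.20) with TAM, the latter −0.074 with library totals.

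The common β1 subunit ITGB1 had 5090 counts in control, 9438 in Rg3 and 2312 in TAM. It fell with TAM, with a log2 fold change of −0.93 (−1.0 to −0.86). With Rg3 its value was 0.56 (0.51 to 0.61), a fold of 1.48 and again just under the limit, and 0.70 and called higher with library totals. ITGB1 shared 15.0% of its stretches of 50 bases with another annotated gene, AC022149.1, so that some of its reads could be placed at either.

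The hemidesmosome subunit ITGB4 had 683 counts in control, 269 in Rg3 and 508 in TAM. Its log2 fold change with Rg3, −1.67 (−1.88 to −1.47), was the farthest from 0 of the 9 subunits in that library and left 0.314 of the control level. With TAM the value was −0.22 (−0.39 to −0.05). ITGB5, the vitronectin receptor β subunit with the most reads, had 3593, 4890 and 3789 counts in control, Rg3 and TAM, and was not called in either treated library. Its log2 fold changes were 0.12 (0.06 to 0.18) with Rg3 and 0.28 (0.22 to 0.35) with TAM.

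ITGB3, the other vitronectin receptor β subunit, was the least abundant of the subunits compared, with 95 counts in control, 81 in Rg3 and 44 in TAM. It fell with TAM, with a log2 fold change of −0.90 (−1.45 to −0.37), and its value with Rg3 was −0.56 (−1.0 to −0.11). Its transcript shared 56.2% of its stretches of 50 bases with AC068234.1, an annotated gene on the same strand, so its counts are uncertain. Exons of antisense genes overlap those of ITGA5, ITGA6, ITGAV and ITGB1. The use of strand in the counting is not given in the sources used here, so that reads of these genes and of their antisense partners cannot be told apart.

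The log2 fold changes of the subunits lay along their base composition. Across the 9 subunits, Spearman's rho between the GC content of the longest transcript and the log2 fold change against control was −0.90 with Rg3 and 0.68 with TAM. Across all genes that reached 50 counts in one of the libraries, rho was −0.81 with Rg3 over 11583 genes and 0.51 with TAM over 11022 genes. The subunits share their libraries with all these genes, and the correlations are a description. Genes with 38 to 44% GC, the range of ITGAV, ITGB1, ITGA2 and ITGA6, had a median log2 fold change of 0.65 with Rg3 and −0.41 with TAM. Genes with 60 to 65% GC, the range of ITGA3 and ITGB4, had medians of −0.60 and 0.43. These ranges were set after the values were seen.

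**Figure D2:**
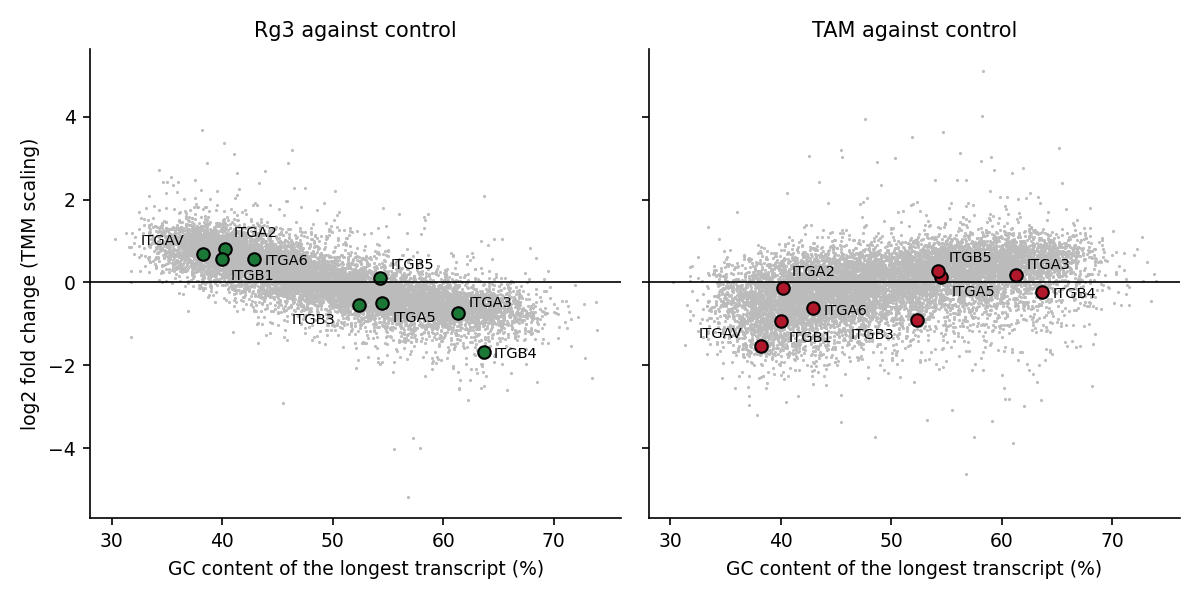
Log2 fold change (TMM scaling) against the GC content of the longest transcript for every gene that reached 50 counts in one of the libraries (grey points), with the 9 integrin subunits compared as large coloured points, for Rg3 (left) and TAM (right) against control. The grey points slope down with GC in Rg3 and up in TAM, most subunits lie within the cloud, and ITGB4 lies at its lower edge in Rg3.

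A smooth trend on GC content and length, fitted over annotated genes reaching 50 counts in either library, was therefore taken off each value. After it, ITGB4 was the only subunit called in the Rg3 library, at −0.97 (−1.17 to −0.76), while 4.85% of 14279 genes were called higher and 7.09% lower. The Rg3 values of ITGA6, ITGAV and ITGB1 came to 0.06 (−0.03 to 0.15), −0.088 (−0.19 to 0.013) and −0.14 (−0.19 to −0.09), and that of ITGA3 to −0.13 (−0.17 to −0.08). ITGA2 came to 0.14. ITGB5 moved away from 0, to 0.44 (0.38 to 0.51), and was not called. ITGB3 came to −0.34 (−0.78 to 0.11) and ITGA5 to −0.17 (−0.24 to −0.11).

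In the TAM library ITGAV, at −0.75 (−0.92 to −0.58), and ITGB3, at −0.95 (−1.50 to −0.42), remained called lower after the trend was taken off. ITGA2 was called higher, at 0.65 (0.47 to 0.82), with its direction turned. Among 14019 genes, 10.5% were called higher and 11.3% lower. ITGB1, at −0.52 (−0.59 to −0.45), and ITGA6, at −0.10 (−0.22 to 0.02), no longer passed the fold limit. ITGB4 with Rg3 and ITGAV with TAM, together with ITGB3 with TAM, were thus the calls made both with and without the trend. Whether the trend itself arose in the cells or in the making of the libraries cannot be told apart with 1 library per condition.

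**Figure D3:**
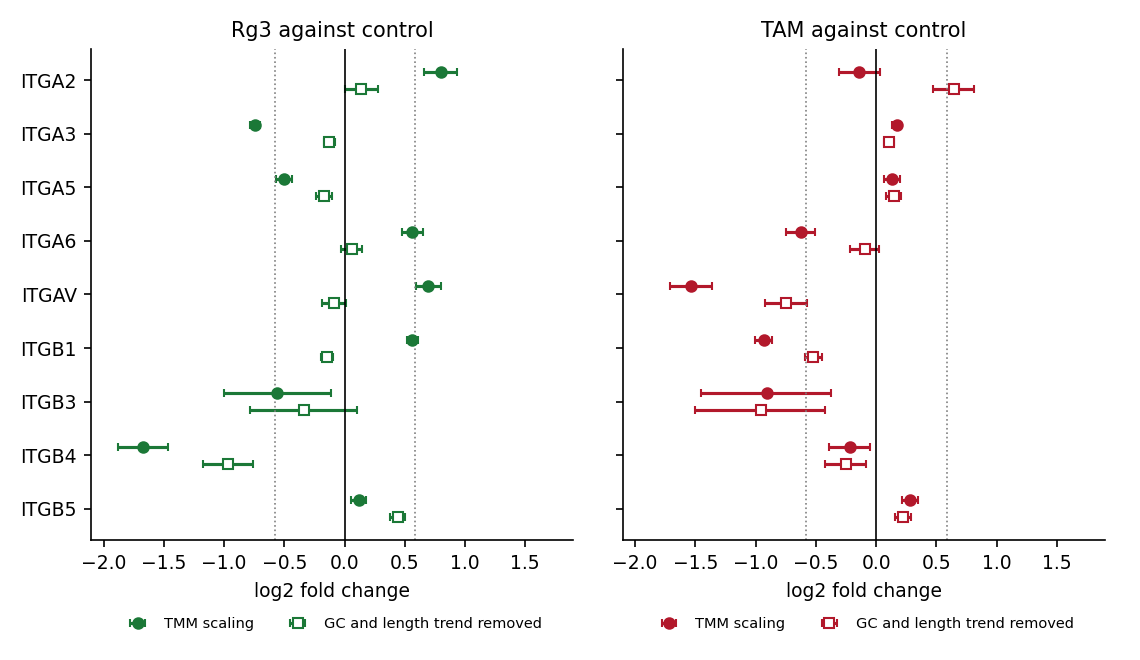
Log2 fold changes of the 9 integrin subunits compared, for Rg3 (left) and TAM (right) against control, with 95% exact binomial intervals that cover counting error only. Filled circles use TMM scaling, open squares have the GC and length trend removed, and dotted lines mark the fold limits of 1.5 and 0.67. ITGB4 in Rg3, and ITGAV and ITGB3 in TAM, lie beyond a limit under both.

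The spread between cultures was not measured and can only be assumed. When edgeR's exact test was run as if the biological coefficient of variation were 0.2, ITGB4 was the 1 subunit called with Rg3, with an adjusted p of 0.0207, and ITGAV the 1 called with TAM, with an adjusted p of 0.0228. Assuming 0.4, none of the 9 was called in either library, and over all genes 1 was called with Rg3 and 1 with TAM.

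Because a receptor needs both chains, the ratio of α to β counts was compared between libraries for the 8 pairs that could be formed without ITGB6. Such a ratio is taken within a library and does not depend on the scaling between libraries. With Rg3, the interval of the change lay above 1 for 5 pairs, below 1 for 2 and spanned it for 1, and with TAM it lay above 1 for 4 and below for 4. With the trend removed, Rg3 had 3 pairs above, 1 below and 4 spanning no change, and TAM had 4 above, 2 below and 2 spanning. Pairs that changed over 2-fold numbered 4 with Rg3 and 3 with TAM, and 1 in each after removal of the trend. No p was computed for these changes. The ratios are of RNA counts, and no protein or surface level was measured in these libraries. ITGA6, ITGAV and ITGB1 each have more than 1 partner, so a ratio does not give the amount of a dimer.

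For the laminin receptor α6β4, there were 2.34 ITGA6 counts per ITGB4 count in control, 11.0 in Rg3 and 1.77 in TAM. The ratio was 4.70 times that of control in Rg3 (95% interval 4.02 to 5.50) and 0.756 times in TAM (0.655 to 0.873). By contrast the ratio of ITGA6 to its other partner, ITGB1, was 0.314 in control and 0.313 in Rg3, a change of 0.999 times (0.931 to 1.07). The TAM ratio of 0.388 was 1.24 times that of control (1.12 to 1.36). On the counts, ITGA6 and ITGB1 thus had the same fold in Rg3 within counting error, but with the trend taken off the log2 change of their ratio was 0.20 (0.10 to 0.30). The change of α6β4 without the trend in Rg3 was 1.02 on the log2 scale (0.80 to 1.25), in place of 2.23, and that in TAM turned to 0.16 (−0.05 to 0.36).

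The ratios of ITGA3 and ITGA5 to ITGB1 went opposite ways in the treated libraries. There were 1.94 ITGA3 counts per ITGB1 count in control, 0.784 in Rg3 and 4.17 in TAM, a change of 0.404 times with Rg3 (0.386 to 0.423) and 2.15 times with TAM (2.03 to 2.27). For ITGA5, the ratios were 0.772, 0.370 and 1.62, a change of 0.479 times (0.452 to 0.507) and 2.09 times (1.96 to 2.24). Taking off the trend brought the Rg3 changes to 0.017 (−0.049 to 0.083) and −0.030 (−0.11 to 0.053) on the log2 scale, and left 0.63 (0.54 to 0.71) and 0.67 (0.57 to 0.76) with TAM. The ratio of ITGA2 to ITGB1 was 0.126 in control, 0.148 in Rg3 and 0.218 in TAM. That ratio was 1.18 times control in Rg3 (1.06 to 1.30) and 1.73 times in TAM (1.52 to 1.97). The TAM change was 0.79 on the log2 scale, and 1.17 (0.98 to 1.35) with the trend taken off.

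The αV pairs include the vitronectin receptors. There were 0.328 ITGAV counts per ITGB5 count in control, 0.489 in Rg3 and 0.0929 in TAM, so that the ratio was 1.49 times control in Rg3 (1.37 to 1.62) and 0.283 times in TAM (0.249 to 0.322). After removal of the trend the TAM change was −0.97 (−1.16 to −0.79) on the log2 scale, in place of −1.82, and the Rg3 change turned from 0.58 to −0.53. The ratio of ITGAV to ITGB1 was 0.231 in control, 0.254 in Rg3 and 0.152 in TAM, a change of 0.658 times with TAM (0.577 to 0.749). On the log2 scale that change was −0.60, and −0.23 (−0.42 to −0.040) with the trend taken off. For ITGAV and ITGB3 the ratios were 12.4, 29.5 and 8.0, with wide intervals of 1.74 to 3.27 times for Rg3 and 0.437 to 0.964 times for TAM. Without the trend both intervals spanned no change, at 0.25 (−0.21 to 0.71) with Rg3 and 0.20 (−0.36 to 0.78) with TAM on the log2 scale. No ratio was taken for ITGAV and ITGB6.

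**Figure D4:**
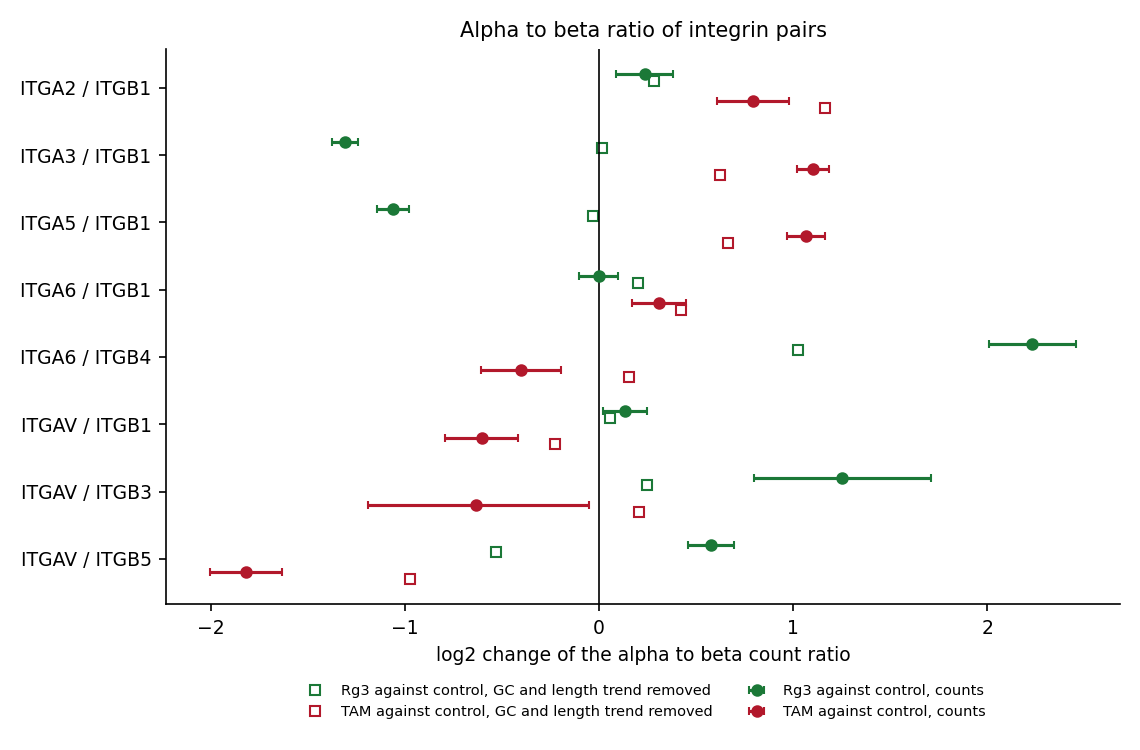
Log2 change, against control, of the ratio of α to β counts for 8 integrin pairs, for Rg3 (green) and TAM (red). Filled circles are from the counts, with exact 95% intervals of the odds ratio that cover counting error only, and open squares have the GC and length trend removed. ITGA6 / ITGB4 in Rg3 stands farthest to the right, at 2.23, and ITGAV / ITGB5 in TAM farthest to the left, at −1.82.

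Seen as a pool, the α reads were mostly those of ITGA3. Its share of the counts of the 5 α subunits was 57.4% in control (95% exact binomial interval 56.6 to 58.1), 42.0% in Rg3 (41.2 to 42.7) and 63.7% in TAM (62.9 to 64.5). The share of ITGAV was 6.84%, 13.6% and 2.33%, and that of ITGA6 was 9.27%, 16.8% and 5.93%. ITGA5 kept between 19.8 and 24.7% of the α reads, and ITGA2 between 3.32 and 7.91%. Among the β reads, ITGB1 took 53.8% in control (52.8 to 54.8), 64.3% in Rg3 (63.5 to 65.1) and 34.8% in TAM (33.6 to 35.9), where ITGB5 held the larger share, 57.0% (55.8 to 58.1). ITGB4 took 7.22% of the β reads in control, 1.83% in Rg3 and 7.64% in TAM. Per length, the summed level of the 5 α subunits was 2.32 times that of ITGB1 in control, 1.24 times in Rg3 and 4.55 times in TAM. These shares and sums keep the GC and length trend. With the trend taken off, the log2 change of the ITGA3 to ITGB1 ratio was 0.017 in Rg3 and 0.63 in TAM. The sums per length also depend on the transcript length chosen.

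**Figure D5:**
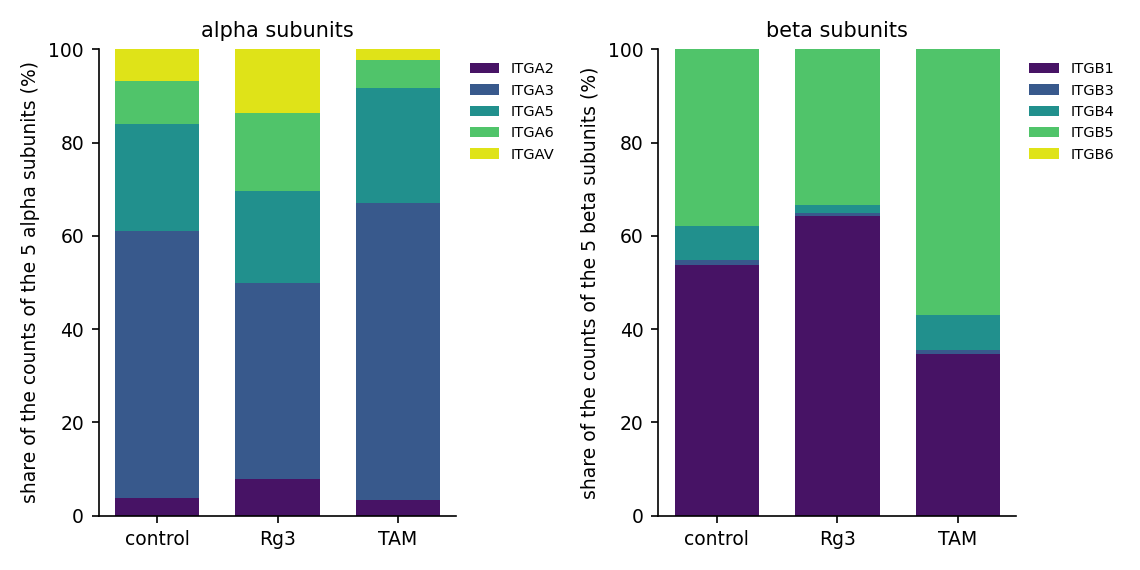
Share of each subunit in the summed counts of the 5 α subunits (left) and of the 5 β subunits (right), in percent, 1 stacked bar per library. ITGA3 is the largest part of the α bars in each library, and the largest part of the β bars is ITGB1 in control and Rg3 and ITGB5 in TAM. The GC and length trend is left in.

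The treated libraries were also set against each other, with the doses differing between the agents. In TAM against Rg3, 3 of the 9 subunits were called higher, ITGA3, ITGA5 and ITGB4, and 4 lower, ITGA2, ITGA6, ITGAV and ITGB1, where 27.0% of 16493 genes were called higher and 31.0% lower. The log2 differences ran from −2.23 (−2.40 to −2.07) for ITGAV to 1.45 (1.23 to 1.67) for ITGB4. That of ITGB5 was 0.16 (0.10 to 0.23) under TMM and −0.18 with library totals. Library totals, which shift each value of this comparison by −0.35, gave 2718 genes higher and 6754 lower, in place of 4461 and 5107. With them ITGB4 alone of the 9 was called higher, ITGA3 being at 0.57 and ITGA5 at 0.28, and ITGB3, at −0.70, joined the 4 called lower. With the trend taken off, ITGB4, at 0.68 (0.47 to 0.90), was called higher, and ITGAV, at −0.66 (−0.82 to −0.50), and ITGB3, at −0.61 (−1.17 to −0.06), lower, while 16.8% of 14269 genes were called higher and 15.1% lower. This comparison uses the same 2 treated libraries as those against control.

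The promoter windows of ITGA2, ITGA6, ITGAV and ITGB1, unlike their transcripts, were rich in G and C. RefSeq windows of 300 bases around the start on GRCh38.p14 were matched for ITGA2, ITGA5, ITGA6, ITGAV, ITGB1, ITGB5 and ITGB6. The start in the window lay 13150 bases from that of the longest transcript for ITGA5 and 336 bases for ITGB1. For the others it lay 9 to 68 bases away. Those of the AT-rich transcripts ITGAV and ITGB1 are shown because both genes had more reads in Rg3 and fewer in TAM than in control. They lie at chr2:186589806-186590105 on the plus strand and chr10:32958181-32958480 on the minus strand. Each was the nearer of 2 windows given for its gene to the start of the longest transcript. Capitals mark the GC box, GGGCGG or its reverse CCGCCC.
ITGAV: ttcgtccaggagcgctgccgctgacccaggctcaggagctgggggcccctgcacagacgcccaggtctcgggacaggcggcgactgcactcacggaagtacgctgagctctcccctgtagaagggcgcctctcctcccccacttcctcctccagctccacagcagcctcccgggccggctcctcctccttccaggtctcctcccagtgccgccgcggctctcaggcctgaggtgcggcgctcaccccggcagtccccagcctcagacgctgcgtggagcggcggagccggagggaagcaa
ITGB1: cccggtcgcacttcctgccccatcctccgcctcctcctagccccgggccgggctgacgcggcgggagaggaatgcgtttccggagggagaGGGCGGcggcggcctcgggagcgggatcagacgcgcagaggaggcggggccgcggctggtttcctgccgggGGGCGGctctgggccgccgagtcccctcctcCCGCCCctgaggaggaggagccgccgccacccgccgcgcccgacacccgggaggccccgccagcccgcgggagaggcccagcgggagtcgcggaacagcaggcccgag
The window of ITGAV held 70.7% G and C and no GC box, and that of ITGB1 78.3% and 3 boxes. GC boxes numbered 4 for ITGA2, 3 for ITGA6, 3 for ITGB5 and 1 for ITGA5, with GC contents of 69.3 to 75.7%. ITGB6, the subunit close to absent, had a window of 31.7% GC with no GC box. Of 35116 RefSeq promoter windows, 45.0% held a GC box on either strand. A TATA box, TATAAA or its reverse TTTATA, was in none of the 7 windows and in 11.5% of all. These matches describe letters and not binding.

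Of the 16 other integrin subunits, 8 had enough reads to compare with Rg3 and 7 with TAM, and their median log2 fold changes were −0.57 and −0.40. ITGAE, the αE subunit that pairs with β7, had 274 counts in control, 543 in Rg3 and 445 in TAM and was called higher in both. ITGA10, a collagen receptor subunit, had 170, 84 and 168 counts and was called lower with Rg3. ITGA1, another collagen receptor subunit, had 8, 39 and 8 counts and was called higher with Rg3, and ITGA7, a laminin receptor subunit, had 27, 16 and 24 and was called lower with Rg3. The β8 subunit ITGB8, a partner of αV, had 49, 63 and 28 counts and was called in neither. Subunits known from blood cells were scarce, with 25, 30 and 5 counts for ITGB2, which was called lower with TAM, 29, 9 and 19 for ITGA2B, called lower with Rg3, and 10, 4 and 3 for ITGB7. ITGA4 and ITGA8 were at 0 in every library. With the trend taken off, ITGA1 and ITGA7 lost their Rg3 calls and ITGB8 was called lower with Rg3, at −0.76. With library totals ITGA7 lost its Rg3 call and ITGB8 was called lower with TAM, at −0.81.

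Among 23 genes of integrin ligands, 0 of 17 compared were higher and 6 lower with Rg3, and 3 of 16 were higher and 8 lower with TAM. In the whole gene set, the matching shares came to 20.5% and 15.8% for Rg3, and to 14.0% and 18.4% for TAM. The median log2 fold change of the list was −0.29 with Rg3 and −0.58 with TAM, beside the 0.04 and −0.02 of all genes. The collagen I chain COL1A1, with 1853, 1005 and 734 counts in control, Rg3 and TAM, was lower in both treated libraries, at −1.21 (−1.32 to −1.10) and −1.13 (−1.26 to −1.01). The laminin chains LAMB2 and LAMA5 were lower with Rg3, at −1.05 and −0.96. With TAM, LAMB1 was lower at −1.59 (−1.80 to −1.39), as was CTGF, a matricellular ligand, at −1.29, while LAMB3 was higher, with 62 counts in control and 152 in TAM, and TGFB1 was higher at 0.88. After the trend was taken off, the Rg3 library had 0 higher and 2 lower, COL1A1 and TNC, and LAMB2, at −0.47, and LAMA5, at −0.16, were no longer called. The TAM library then had 2 higher and 8 lower, with LAMB1, CTGF, COL1A1 and LAMB3 still called and TGFB1 not. At that setting the matching shares in the whole gene set came to 4.85% and 7.09% for Rg3, and to 10.5% and 11.3% for TAM.

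Of the 22 genes that activate integrins or link them to actin, 1 was higher and 11 lower of 21 compared with Rg3, and 1 was higher and 7 lower of 20 compared with TAM. Their medians were −0.67 and −0.32. For this list and those that follow, the shares over all genes were again 20.5% higher and 15.8% lower with Rg3 and 14.0% and 18.4% with TAM, and after removal of the trend 4.85% and 7.09%, and 10.5% and 11.3%. The tensin TNS4, with 203 counts in control, 16 in Rg3 and 97 in TAM, had a log2 fold change of −3.99 (−4.83 to −3.26) with Rg3. The actin crosslinker FLNA, with 21478, 12058 and 22332 counts, was lower with Rg3 at −1.16 (−1.19 to −1.13). TGFB1I1, a paxillin relative, was lower with Rg3 at −1.31 and higher with TAM at 0.92, and the kindlin FERMT2, an integrin activator, was higher with Rg3 at 1.03. With TAM the linker VCL was lower at −1.25 (−1.33 to −1.17), as was TNS3 at −1.06. Without the trend, the Rg3 library had 1 higher and 4 lower, and the TAM library 3 higher and 5 lower. The 1 higher with Rg3 was then FERMT3, with 9 counts in control and 20 in Rg3, while FERMT2 at 0.14 and FLNA at −0.53 were no longer called. TNS4, at −3.50, and TGFB1I1, at −0.78, remained lower with Rg3, as VCL and TNS3 did with TAM.

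Of 18 adhesion signalling genes, Rg3 had 2 higher and 3 lower, and TAM had 1 higher and 4 lower, with medians of 0.16 and −0.28. The Src family kinase YES1 was higher with Rg3 at 0.75 and lower with TAM at −1.15, and the adaptor CRK was higher with Rg3 at 0.62. SRC, at −1.10, and the adaptor BCAR1, at −0.79, were lower with Rg3. With TAM, DOCK1, a Rac activator, was lower at −1.08, and PTK2, the focal adhesion kinase, at −0.69. With the trend taken off, the Rg3 library had 0 higher and 1 lower, NEDD9, with 41 counts in control and 24 in Rg3. YES1, CRK, SRC, at −0.56, and BCAR1, at −0.11, then lost their Rg3 calls. In the TAM library DOCK1, at −0.62, stayed lower and PTK2B, with 39 counts in control and 63 in TAM, stayed higher, while YES1, CRK and PTK2 lost their calls.

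The partners of α6β4 at hemidesmosomes were looked up beside it. CD151, a tetraspanin bound to laminin-binding integrins, had 12778, 9327 and 16329 counts in control, Rg3 and TAM and was lower with Rg3 at −0.78 (−0.82 to −0.74). DST, a linker to the cytoskeleton, had 1339, 2423 and 359 counts and was lower with TAM at −1.69 (−1.86 to −1.52). CD151 was 1 of 3 compared to be called with Rg3, while with TAM 1 of 4 was higher, COL17A1 with 5 counts in control and 15 in TAM, and 1 lower. Without the trend CD151 came to −0.16 and DST to −0.69, and DST remained called.

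Of 12 genes that regulate, recycle or associate with integrins, 11 were compared in each treated library. With Rg3 4 were higher and 3 lower, and with TAM 3 were higher and 3 lower, with medians of 0.30 and 0.07. SNX17, a sorting factor that returns β1 integrins to the surface, had 2207, 1808 and 4499 counts, was lower with Rg3 at −0.61 and was higher with TAM at 1.23 (1.16 to 1.31), with 0.88 after removal of the trend. SHARPIN, an integrin inhibitor, was lower with Rg3 at −0.73 and higher with TAM at 0.73. The small GTPase RAB21, which binds α tails, was higher in both, at 0.84 and 0.59. CD47, a partner of αV integrins, at 0.90, and KRIT1, at 0.84, were higher with Rg3, and the tetraspanin CD9 was lower at −0.63. With TAM the endocytic adaptors DAB2, at −0.71, and NUMB, at −0.67, were lower, as was KRIT1, with 86 counts in control and 28 in TAM, at −1.41. With the trend taken off, 0 of this list were called with Rg3. With TAM 4 were then higher, SNX17 and RAB21 among them, and the 1 lower was KRIT1, at −0.83, while SHARPIN, DAB2 and NUMB lost their calls. Library totals left 1 higher with TAM, SNX17, with RAB21 at 0.38 and SHARPIN at 0.53, and the same 3 lower. Over all genes 6.97% were then higher and 26.9% lower. For Rg3, library totals left 4 higher and 1 lower, SHARPIN, beside 26.5% and 10.6% of all genes.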

How the data were processed

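PANC-1 RNA was sequenced on an Ion Proton instrument in 3 libraries. Per the methods, the authors checked reads with FAST-QC and aligned them with TopHat, and they deposited raw read counts per gene symbol. The submitters' processing notes name GRCh38. The counting tool, annotation and use of strand are not given in the sources used here. From the counts, TMM factors (edgeR 4.0.16, R 4.3.3) were 1.02 for control, 1.12 for Rg3 and 0.879 for TAM. Genes reaching 10 counts in one of the libraries were compared by the exact binomial test (scipy 1.17.1, Python 3.11.15), since Limma, which the methods name, needs replicates. Counts under 3 were raised to 3. Intervals are exact, at 95%, and cover counting error only. GC content and length came from the longest GENCODE 29 transcript, found for 86.6% of genes compared for Rg3 and 87.2% for TAM, and the trend was a loess (span 0.3). Alternatives also used DESeq2 1.42.0 size factors. Named genes of other lists were the 3 largest calls per direction with at least 100 counts, and other integrins with at least 10 counts, besides COL17A1, ITGA4, ITGA8, FERMT3, NEDD9, PTK2B, TNC, KRIT1 with TAM and single markers, named after their values were seen. The result of 1 gene under this rule is not reported here. The subunits and lists were chosen with earlier results of these data known. The steps were tested on simulated data.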

Additional observations from a re-analysis of the deposited data

How the results depend on the processing

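No paired analysis was possible because there was 1 library for every condition, and no library could be left out. DESeq2 size factors, filters of 1 or 50 counts and the fold alone left each of the 27 subunit values on its side of the limits and in its direction, and each count within 1.5 times. Library totals gave 4 subunits higher with Rg3 in place of 2, 1120 genes higher with TAM in place of 2250, and in TAM against Rg3 1 subunit and 2718 genes higher in place of 3 and 4461. They turned ITGA3 to −0.039 and ITGA5 to −0.074 with TAM, and ITGB5 to −0.18 in TAM against Rg3.

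Removal of the GC and length trend gave 0 subunits higher and 1 lower with Rg3, with 692 and 1012 genes, 1 higher and 2 lower with TAM, with 1465 and 1583 genes, and 1 higher and 2 lower in TAM against Rg3, with 2392 and 2156 genes. It turned ITGAV to −0.088 and ITGB1 to −0.14 with Rg3, ITGA2 to 0.65 with TAM, and ITGA2 to 0.50 and ITGB5 to −0.22 in TAM against Rg3. It turned 4 of 24 log2 ratio changes: ITGA3 to ITGB1 to 0.017 and ITGAV to ITGB5 to −0.53 with Rg3, and ITGA6 to ITGB4 to 0.16 and ITGAV to ITGB3 to 0.20 with TAM. The cause was not tested.

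An assumed variation of 0.2 gave 0 subunits higher and 1 lower with Rg3, with 64 and 92 genes, 0 higher and 1 lower with TAM, with 109 and 365 genes, and 1 higher and 3 lower in TAM against Rg3, with 2156 and 2939 genes. An assumed variation of 0.4 gave 0 subunits in any direction of the 3 comparisons, with 0 genes higher and 1 lower with Rg3, 0 and 1 with TAM, and 0 and 0 in TAM against Rg3. Another transcript length moved levels beyond their counting interval, all 27 with the median length and 21 of 27 with the union of exons. Of the counts by gene list, 10 moved by over 1.5 times with library totals and 18 with the trend removed. Depth limits ITGB3 and ITGB6 most.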
